A study of Mus musculus with 8 samples.

Results

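Pus1, Pusl1 and Pus3 are the 3 mouse genes of the TruA type of pseudouridine synthase, and their RNA was followed in mouse hearts with and without an altered Pus1 gene. They were found by mapping the RefSeq accession of every probe on the array to a gene, and they are 3 of the 20972 genes that had a probe. Each had 1 probe with 1 spot, A_55_P2056100 for Pus1, A_52_P471143 for Pusl1 and A_55_P2060404 for Pus3. All 3 probes were well above background in 8 of 8 hearts, and none of their spots was saturated or uneven, so no member was lost to a filter.

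Pseudouridine synthases turn uridine into pseudouridine within a finished RNA chain, and enzymes of the TruA type do so with an aspartate in the active site. Pus1 works on transfer RNAs of the cytosol and of the mitochondria, and loss of human PUS1 causes myopathy with lactic acidosis and sideroblastic anaemia. Pus3 modifies the anticodon arm of transfer RNAs, while the product of Pusl1 is a mitochondrial protein with a TruA fold. Heart muscle depends on mitochondrial translation for its respiratory chain.

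The mutant group held hearts of 4 mice that the labels call homozygous for mutant PUS1, in a series titled as a knockout, and the wild-type group held 4 hearts. Each genotype had 2 females and 2 males. All 8 mice, aged 14 to 16 weeks, came from a strain backcrossed to C57BL/6J for 5 generations. Total RNA (100 ng) from a frozen piece with both atrium and ventricle went into each labelling. Neither the allele nor the place of the Pus1 probe relative to the change is given in the labels, so the probe is no check of the allele itself. Each of 4 Agilent 2-colour arrays carried 1 mutant and 1 wild-type heart of one sex. Arrays 1 and 2 held females and the others males, and within each sex the dyes were swapped, mutant hearts 1 and 3 and wild-type hearts 2 and 4 being labelled with Cy5.

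The share of all probes well above background was 44.7% to 54.6% in mutant hearts and 46.3% to 53.8% in wild-type hearts. Of 6 ventricular myocyte markers 5 were measured, all 5 in every heart, and their summed normalized intensity on a linear scale ran from 795500 to 1432300 in mutant hearts and from 955060 to 1506600 in wild-type hearts. For the 5 measured of 6 atrial markers the sum ran from 18189 to 541520 in mutant hearts and from 12322 to 188570 in wild-type hearts. For the 6 measured of 7 erythroid markers it ran from 145680 to 1029400 in mutant hearts and from 185130 to 863370 in wild-type hearts. The summed levels of all 9 marker lists overlapped between the genotypes, adipocyte, fibroblast, endothelial, macrophage, lymphocyte and skeletal muscle lists included. Levels without overlap were rare among single features too (0.707% of 21792), so this overlap does not show equal tissue content. Measured were 3 of 6 adipocyte, 3 of 5 macrophage, 3 of 5 lymphocyte and 2 of 5 skeletal muscle markers. All 5 measured atrial markers had a positive mean log2 ratio, mutant over wild type, with a median of 1.16. Their median by array ran from -1.49 on array 1 to 4.28 on array 4, and 1 marker kept one sign on all 4. Of the 5, 3 were well above background in every heart. Among the 6 erythroid markers 5 had a negative mean ratio, with a median of -0.22.

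The stretch around the start of each gene, from 250 bases before it to 50 after it, is shown from RefSeq on the build GRCm38.p6, because the 3 windows share one short element and differ in another. The array files use another build, and nothing on the array was placed by these coordinates. Windows run 5′ to 3′ on the strand of the gene. Capitals mark the E-box CACGTG, which reads the same on both strands, and the core GCGCANGCGC to which the factor NRF1 is known to bind. Pus1 lies at chr5:110780566-110780865 (minus strand), Pusl1 at chr4:155891713-155892012 (minus strand) and Pus3 at chr9:35558310-35558609 (plus strand).
Pus1: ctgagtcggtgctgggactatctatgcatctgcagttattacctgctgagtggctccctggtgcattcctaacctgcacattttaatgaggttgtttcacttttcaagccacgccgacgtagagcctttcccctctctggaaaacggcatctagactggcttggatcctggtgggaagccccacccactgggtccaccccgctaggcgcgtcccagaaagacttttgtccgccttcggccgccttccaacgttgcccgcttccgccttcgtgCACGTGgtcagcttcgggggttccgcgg
Pusl1: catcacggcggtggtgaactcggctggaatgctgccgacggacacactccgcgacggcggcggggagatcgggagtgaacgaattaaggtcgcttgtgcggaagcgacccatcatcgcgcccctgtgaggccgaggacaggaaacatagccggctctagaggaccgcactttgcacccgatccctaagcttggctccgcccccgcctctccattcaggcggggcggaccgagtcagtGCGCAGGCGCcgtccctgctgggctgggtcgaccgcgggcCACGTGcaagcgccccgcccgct
Pus3: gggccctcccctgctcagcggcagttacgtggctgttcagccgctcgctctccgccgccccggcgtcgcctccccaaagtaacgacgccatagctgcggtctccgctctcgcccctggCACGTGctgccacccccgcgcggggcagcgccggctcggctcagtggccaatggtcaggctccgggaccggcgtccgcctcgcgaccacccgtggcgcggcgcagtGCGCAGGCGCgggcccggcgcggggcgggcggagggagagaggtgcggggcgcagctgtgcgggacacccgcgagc
An E-box stood in all 3 windows, at bases 23 to 28 after the start in Pus1, 28 to 33 after it in Pusl1 and at -132 to -127 in Pus3. Of 32851 windows of the same length in the RefSeq table, 7.15% held a CACGTG. The NRF1 core stood in Pusl1 (-13 to -4) and Pus3 (-26 to -17), and these letters were not in the Pus1 window, against 4.6% of all windows searched on both strands. The E-box and the core occurred together in 0.615% of all windows. The GC box GGGCGG was found 3 times in Pusl1 and 3 times in Pus3, where 2 copies overlap, but not in Pus1, against 35.7% of all windows with at least 1. CCAAT occurred in Pus3 (37.4% of all windows) and TATAAA in none of the 3 (13.6%). The windows were 58.0% G or C in Pus1, 68.0% in Pusl1 and 77.0% in Pus3, with a median of 52.7% over all windows. RefSeq gave Pus1 a second start whose window, chr5:110780547-110780846, overlaps the one shown and holds the same E-box at bases 4 to 9. These matches describe the letters only.

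Whether the altered Pus1 gene still gave RNA was asked first. Pus1 RNA was lower in every mutant heart than in every wild-type heart. The normalized log2 intensity of its probe, on a scale where 1 unit is a doubling, was 7.07, 7.56, 7.24 and 7.13 in mutant hearts 1 to 4, against 9.22, 9.23, 8.92 and 9.01 in wild-type hearts 1 to 4. The means were 7.25 ± 0.22 in mutant hearts and 9.10 ± 0.15 in wild-type hearts (SD, n = 4 each). The groups did not overlap, the highest mutant heart lying below the lowest wild-type heart, and 78 of 21792 features (0.358%) had all mutant levels below all wild-type levels. In tissue pieces, fewer cells with the RNA and less RNA per cell cannot be told apart.

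Within the arrays, the mutant over wild-type log2 ratio of Pus1 was -2.15, -1.68, -1.69 and -1.88 on arrays 1 to 4. Their mean was -1.85 (SE 0.13, 95% interval -2.20 to -1.50), or 3.61-fold lower in mutant hearts. The sign was the same in both dye orientations, and the dye term of the fit for Pus1 was -0.07. In limma with a genotype and a dye term over all 21792 features, 0 features (0.00%) had a Benjamini-Hochberg adjusted p under 0.05, while 223 (1.02%) had an unadjusted p under 0.05. Pus1 had an unadjusted p of 7.71e-05 in that fit and an adjusted p of 1.00, so it did not pass. When the limma fit held a sex by genotype term, its Benjamini-Hochberg adjusted p was 0.00577, and it was the only feature of 21792 that passed (0.00459%). The Pus1 estimate was the same in that fit and its SE larger, 0.140 against 0.130. That fit left 1 residual degree of freedom per feature, against 2, and limma adds degrees of freedom from the spread of all features. Despite the larger SE the 95% interval for Pus1 was narrower there, -2.17 to -1.53, which takes more degrees of freedom in total. The smaller p is therefore no sign of a larger or more precise Pus1 difference. Why the added degrees of freedom differed was not tested. An exact sign-flip test over the 4 arrays gave p = 0.125, the smallest that 4 arrays allow, and an exact permutation of the genotype labels over the 8 hearts gave p = 0.0286, also the smallest possible (both 2-sided). Here and below, the label permutation ignores array and dye, and so the pairing of hearts that the sign-flip test keeps.

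**Figure D1:**
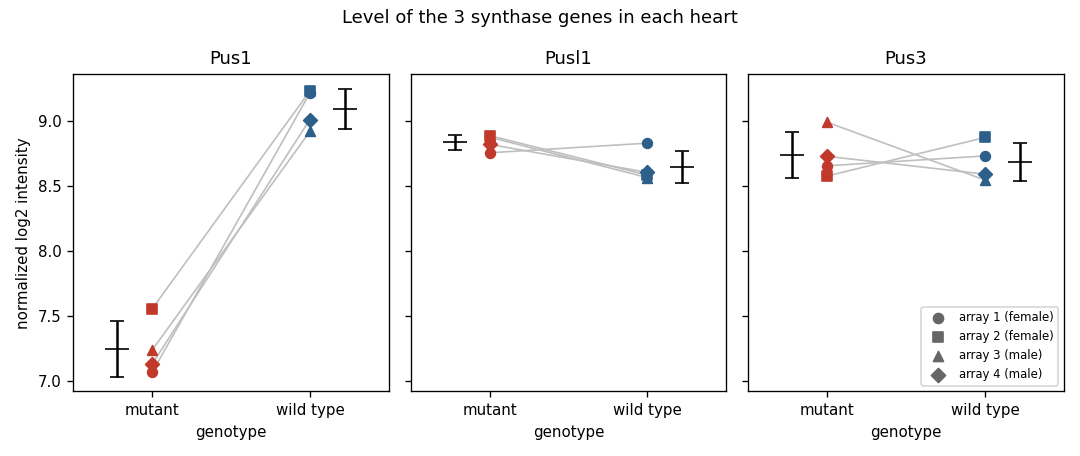
Normalized log2 intensity of Pus1, Pusl1 and Pus3 in each heart, mutant left and wild type right, with a symbol per array, grey lines joining the 2 hearts of an array and bars for the mean and SD (n = 4). The 4 mutant hearts lie at 7.07 to 7.56 for Pus1 and the 4 wild-type hearts at 8.92 to 9.23, whereas the genotypes overlap for Pusl1 and Pus3.

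Pus1 stood apart from the rest of the array. It had the lowest mean ratio of the 21792 features, the largest in absolute size and the smallest p. It was the only feature with a ratio at or below -1.68, the highest ratio of Pus1 itself, on all 4 arrays. A mean ratio as far above 0 was seen in 0 features. These ranks hold for the processing as reported and were not taken under the alternatives. A ratio below 0 on all 4 arrays was itself seen in 556 features (2.55%). The SD of the 4 Pus1 ratios was 0.22, against a median SD of 0.31 over all features, and the median log2 ratio of all features was -0.01. The mean of Pus1 ran from -1.97 to -1.73 when each array was left out in turn. Over the same arrays the median log2 ratio of the atrial markers was -1.49, 1.64, 0.38 and 4.28 and that of the erythroid markers ran from -2.30 on array 2 to 2.50 on array 1. The part of these tissue differences in the Pus1 ratio was not tested.

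The Pus1 spot in mutant hearts was dim but did not vanish. Before any correction, the median pixel intensity of the spot in Cy5 was 294.5 and 254 in mutant hearts 1 and 3, against 987 and 854 in wild-type hearts 2 and 4. In Cy3 it was 115 and 117 in mutant hearts 2 and 4, against 346.5 and 314 in wild-type hearts 1 and 3. In both dyes, each mutant spot was under each wild-type spot of that dye. The local background around these spots was 145, 54, 150 and 62 in mutant hearts 1 to 4, against 53.5, 149, 61 and 142 in wild-type hearts 1 to 4, and so followed the dye. The spot was 1.69 to 2.13 times its local background in mutant hearts and 5.15 to 6.62 times in wild-type hearts. After subtraction of the local background, it was 2.29 to 5.54 times the 95th percentile of the 308 negative control spots of the same channel in mutant hearts, against 11.5 to 41.2 times in wild-type hearts. Signal above the negative controls was thus present in 4 of 4 mutant hearts. Its source was not tested.

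**Figure D2:**
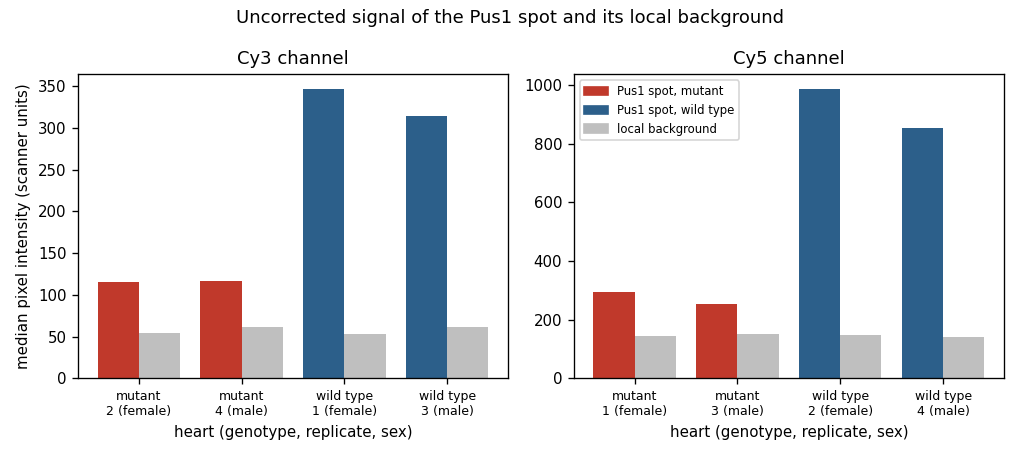
Uncorrected median pixel intensity of the Pus1 spot (red for mutant, blue for wild type) and of its local background (grey), by heart, with Cy3 left and Cy5 right on separate axes that start at 0. Mutant spots are at 115 and 117 in Cy3 and at 294.5 and 254 in Cy5, above the grey bars and below every wild-type spot of the same dye.

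The mutant spots lay near background, and the size of the Pus1 difference moved with the way background was handled. With no background correction the mean log2 ratio was -1.74 (3.35-fold lower in mutant hearts), near the -1.85 obtained with normexp, a model-based correction, and an added offset of 50. With the smaller offset of 16 it was -2.15 (4.45-fold) and with an offset of 0 it was -2.34 (5.07-fold). The scanner software's own background-subtracted signals gave -3.38, -2.58, -2.37 and -2.99 on arrays 1 to 4, a mean of -2.83 (7.10-fold). The authors' deposited series matrix gave -3.45, -2.60, -2.16 and -3.16 on arrays 1 to 4, a mean of -2.84 (7.17-fold). All 4 arrays were negative under each of these 6 ways, and array 1 was the lowest in each. In the authors' deposited table the scanner software attached an error of 0.31 to 0.38 to each log2 ratio of Pus1. The ratios were 7.55 to 8.82 of these errors below 0. Here and below, this error belongs to 1 spot on 1 array and holds no spread between hearts, so such multiples do not test genotype.

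**Figure D3:**
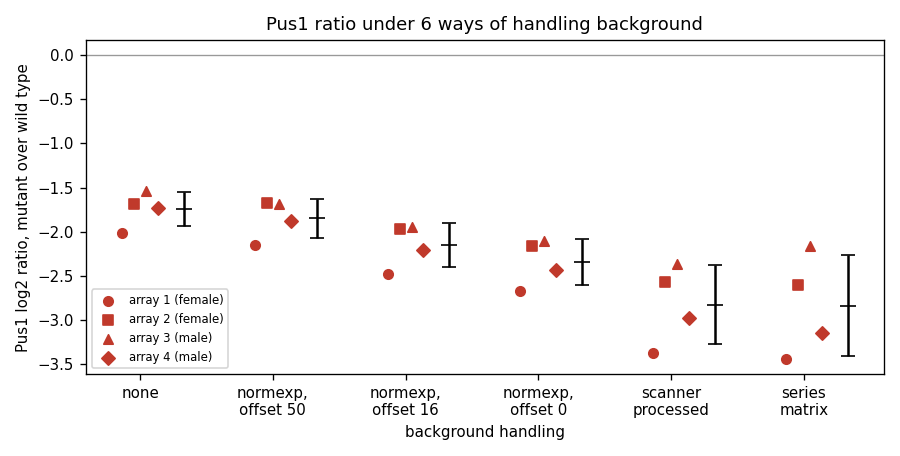
Mutant over wild-type log2 ratio of Pus1 on each of 4 arrays under 6 ways of handling background, with the mean and SD (n = 4) at the right of each group. Mean ratios run from -1.74 with no correction to -2.84 in the series matrix, and every point lies below 0.

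Pus1 was lower in mutants of both sexes. Its log2 level averaged 7.31 in mutant females and 9.23 in wild-type females, and 7.18 in mutant males and 8.97 in wild-type males (n = 2 each). In the limma fit with a sex term, the log2 ratio was -1.92 in females (Benjamini-Hochberg adjusted p = 0.0429) and -1.79 in males (adjusted p = 0.0311). Past the threshold were 2 of 21792 features (0.00918%) in females and 737 (3.38%) in males. Both Pus1 calls were lost under 6 of 9 other settings of the limma fit, for example at adjusted p = 0.114 in females and 0.0869 in males without background correction. The difference, females minus males, was -0.13 (95% interval -0.76 to 0.50, Benjamini-Hochberg adjusted p = 0.949 in limma) and did not pass, whereas 2035 features (9.34%) passed in that comparison, a count that was 0 with the scanner's processed signals.

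The relatives of Pus1 showed no difference of that size. Pusl1 had a log2 level of 8.76, 8.89, 8.88 and 8.82 in mutant hearts 1 to 4, against 8.83, 8.59, 8.57 and 8.61 in wild-type hearts 1 to 4. The means were 8.84 ± 0.06 in mutant hearts and 8.65 ± 0.12 in wild-type hearts (SD, n = 4 each). The groups overlapped through wild-type heart 1 alone, whose level exceeded those of mutant hearts 1 and 4, while the other 3 wild-type hearts lay below all mutant hearts.

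The within-array log2 ratio of Pusl1 was -0.07, 0.31, 0.31 and 0.22 on arrays 1 to 4. The mean was 0.19 (SE 0.12, 95% interval -0.13 to 0.51), with a Benjamini-Hochberg adjusted p of 1.00 in limma, and it did not pass. The mean stayed above 0 under all 20 alternatives, from 0.09 to 0.30, and was 0.29 without array 1. With 1 probe and balanced dyes, several of the 20, such as filters on dim probes or no dye term, could not move the mean. An exact permutation of the labels gave p = 0.0857 and an exact sign-flip test p = 0.25. The ratio was 0.12 in females and 0.26 in males, a difference of -0.15 (Benjamini-Hochberg adjusted p = 0.934 in limma) that did not pass. With median centring, processed signals or series matrix values the male ratio of Pusl1 was 0.47 to 0.50 and the difference -0.42 to -0.34, which did not pass either. In the authors' deposited table the scanner software's log2 ratios of Pusl1 were -0.21, 0.37, 0.61 and 0.38, with an error of 0.21 to 0.22 each. On array 3 the ratio exceeded this error 2.78 times.

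Pus3 had a log2 level of 8.66, 8.58, 8.99 and 8.73 in mutant hearts 1 to 4, against 8.73, 8.88, 8.55 and 8.59 in wild-type hearts 1 to 4. The means were 8.74 ± 0.18 in mutant hearts and 8.69 ± 0.15 in wild-type hearts (SD, n = 4 each). The groups overlapped over most of their range. In females the log2 ratio was -0.08 on array 1 and -0.30 on array 2, and in males it was 0.45 on array 3 and 0.14 on array 4. The mean was 0.05 (SE 0.15, 95% interval -0.35 to 0.46), with a Benjamini-Hochberg adjusted p of 1.00 in limma, and it was -0.08 without array 3 and -0.06 without array 4.

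For Pus3 both female ratios were below 0 and both male ratios above it. The estimates were -0.19 in females and 0.29 in males, and the difference of -0.48 (95% interval -1.06 to 0.10) had an unadjusted p of 0.0961 and a Benjamini-Hochberg adjusted p of 0.457 in limma. It did not pass, in a comparison where 9.34% of features did. With median centring the male ratio of Pus3 was 0.51 and the difference -0.69. In the authors' deposited table the scanner software's log2 ratios of Pus3 were -0.02, -0.39, 0.75 and 0.12, with an error of 0.21 to 0.22 each. On array 3 the Pus3 ratio exceeded this error, which holds no spread between hearts, 3.41 times. Exact permutation of the labels over the hearts gave p = 0.686.

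Pseudouridine synthases outside the TruA type were set beside these 3 genes. Of 10 on the array 9 were measured, and Rpusd2, well above background in 0 of 8 hearts, was not tested. Of the 9, 5 had a positive and 4 a negative mean log2 ratio, with a median of 0.04 against -0.01 over all features. By limma with Benjamini-Hochberg adjustment 0 passed, against 0.00% of all features, 0 had an unadjusted p under 0.05, and 0 had one sign on all 4 arrays, which 4.89% of all features had. Pus1 was the one synthase among the 12 measured whose mutant and wild-type levels did not overlap, in either direction, which held for 154 of 21792 features (0.707%).

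The largest mean was that of Pus7l (log2 ratio 0.13, SE 0.13), a relative of Pus7. The Pus7l probe was well above background in 7 of 8 hearts. Pus7, which modifies transfer and messenger RNAs, was at -0.03 (SE 0.13). Lowest stood Trub1 (log2 ratio -0.10, SE 0.11), a synthase of the TruB type that acts on transfer RNAs. Its relative Trub2, found in mitochondria, was at 0.06 (SE 0.11). Dkc1, the catalytic subunit of the small nucleolar ribonucleoproteins that pseudouridylate ribosomal RNA, was at 0.06 (SE 0.13). Pus10, another transfer RNA synthase, had a ratio of -0.66 on array 1 and between 0.05 and 0.27 on the others, a mean of -0.04 (SE 0.17). Rpusd1 was at 0.07 (SE 0.16), and Rpusd3 (-0.02, SE 0.12) and Rpusd4 (0.04, SE 0.14) encode mitochondrial synthases of the RluA type. With median centring in place of loess the median of all features moved to 0.08, 8 of the 9 were positive and their median was 0.17, while the scanner's processed signals and the series matrix each gave 6 of 9.

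**Figure D4:**
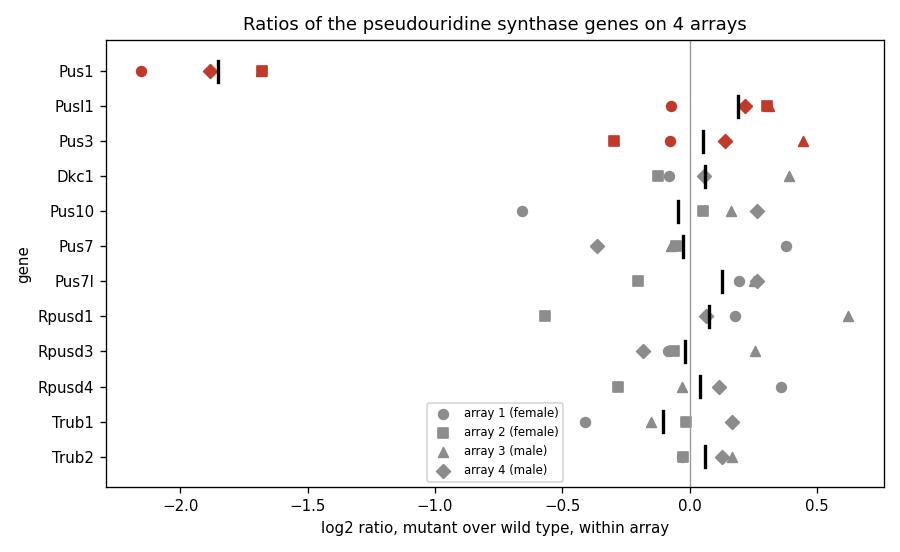
Mutant over wild-type log2 ratio of 12 measured pseudouridine synthase genes on each of 4 arrays (symbols), with the mean as a black bar, the 3 TruA-type genes in red and other synthases in grey. Pus1 lies at -2.15 to -1.68, and all other points lie between -0.66 and 0.62.

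Genes tied to the known roles of Pus1 were counted as lists. In sideroblastic anaemia, iron gathers in the mitochondria of red cell precursors, and human PUS1 is one of its inherited causes. Of 15 other such genes 14 were measured, 10 positive and 4 negative, with a median log2 ratio of 0.06 against -0.01 over all features. By limma with Benjamini-Hochberg adjustment 0 passed, against 0.00% of all features, and 0 had an unadjusted p under 0.05, against 1.02%. Among the genes with the smallest p were Hscb, a co-chaperone of iron-sulfur cluster assembly (-0.39, SE 0.16), Slc19a2, a thiamine transporter (0.15, SE 0.14), and Trnt1, which adds CCA to transfer RNAs (0.09, SE 0.10). None of the 14 kept one sign on all 4 arrays, which 4.89% of all features did.

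Pus1 also modifies the steroid receptor RNA activator, a coactivator RNA of nuclear receptors, as known from mouse cells. Of 18 genes of that RNA and its partners 16 were measured, 6 positive and 10 negative, with a median of -0.03 against -0.01 over all features. By limma 0 passed, against 0.00% of all features, and 0 had an unadjusted p under 0.05, against 1.02%. Rxra, a retinoid receptor, had a negative ratio on all 4 arrays (mean log2 ratio -0.17, SE 0.12), as had the coactivator gene Ncoa1 (-0.13, SE 0.10). Of all features 2.55% were negative on all 4 arrays. Ncoa3, another coactivator gene, was at -0.16 (SE 0.15) and Thrb, a thyroid hormone receptor gene, at -0.12 (SE 0.12). Sra1 itself, which gives the activator RNA, was not among the 4 smallest p, and its value is named as one chosen after it was seen, 0.09 (SE 0.10).

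Other transfer RNA modifiers numbered 28, of which 25 were measured, 15 positive and 10 negative with a median of 0.00. By limma 0 passed, against 0.00% of all features, and 1 had an unadjusted p under 0.05, against 1.02%. This was Gtpbp3, which modifies mitochondrial transfer RNAs, at a log2 ratio of -0.38 (SE 0.12), with ratios of 0.14, -0.66, -0.29 and -0.69 on arrays 1 to 4. Its probe was dim, well above background in 1 of 4 mutant hearts and 3 of 4 wild-type hearts, so this ratio is uncertain. Next was Cdkal1, a methylthiotransferase (-0.18, SE 0.10), negative on all 4 arrays as were 2.55% of all features. Then came Elac2 (-0.19, SE 0.12) and Trmt1, a methyltransferase (-0.18, SE 0.14). Elac2 trims the 3′ end of transfer RNA precursors and was counted in this list though it modifies no base. Under median centring the positive members were 12 of 14 anaemia genes, 14 of 16 receptor partners and 20 of 25 modifiers. Receptor partners were 4 of 16 positive with scale normalization and with processed signals.

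The genes whose levels ran closest to those of Pus1 were sought over the 8 hearts. Likeness was the root mean square difference between a gene's log2 levels and those of Pus1, each taken from its own mean over the hearts, over 13691 named genes, and a flat gene would stand at 0.94 on this measure. Nearest was P2rx7, an ATP-gated ion channel gene, at 0.44, then Pxmp2, a peroxisomal membrane channel gene, at 0.59 and Timp4, an inhibitor of metalloproteinases abundant in heart, at 0.60. Like every other feature, all 3 had a smaller mean log2 ratio in absolute size than Pus1.

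P2rx7 had log2 levels of 7.18, 7.78, 8.22 and 7.53 in mutant hearts 1 to 4, against 8.75, 8.94, 8.82 and 8.71 in wild-type hearts 1 to 4. These did not overlap, as in 0.707% of all features in either direction, but P2rx7 was picked for its likeness to Pus1. Its mean log2 ratio was -1.13 (SE 0.19), but its other 2 probes gave -0.07 and 0.02. The probe at 0.02 was well above background in 8 of 8 hearts and the one at -0.07 in 4 of 8. Pxmp2 stood at 11.86 ± 0.21 in mutant hearts and 12.59 ± 0.19 in wild-type hearts (SD, n = 4 each), with a mean ratio of -0.73 (SE 0.12). The Pxmp2 levels did not overlap either, at most 12.09 in mutant hearts and at least 12.31 in wild-type hearts. Timp4 was lower in mutants on 3 arrays but had a log2 ratio of 0.24 on array 2, and its mean was -0.88 (SE 0.30).

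With the sign of the Pus1 levels turned, the nearest were Ift81, a gene of intraflagellar transport, at 0.57, Ccl8, a chemokine gene, at 0.61 and Sparcl1, which encodes a matrix glycoprotein, at 0.62. Their mean log2 ratios were 1.06 (SE 0.12) for Ift81, 0.70 (SE 0.18) for Ccl8 and 0.73 (SE 0.11) for Sparcl1, each positive on all 4 arrays. The 6 genes were picked for their likeness, so these ratios describe them, and in limma with Benjamini-Hochberg adjustment each had an adjusted p of 1.00. Of the 6, 4 (P2rx7, Pxmp2, Ift81 and Sparcl1) lie on chromosome 5, as does Pus1, and that chromosome holds 843 of 13692 named features (6.16%).

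**Figure D5:**
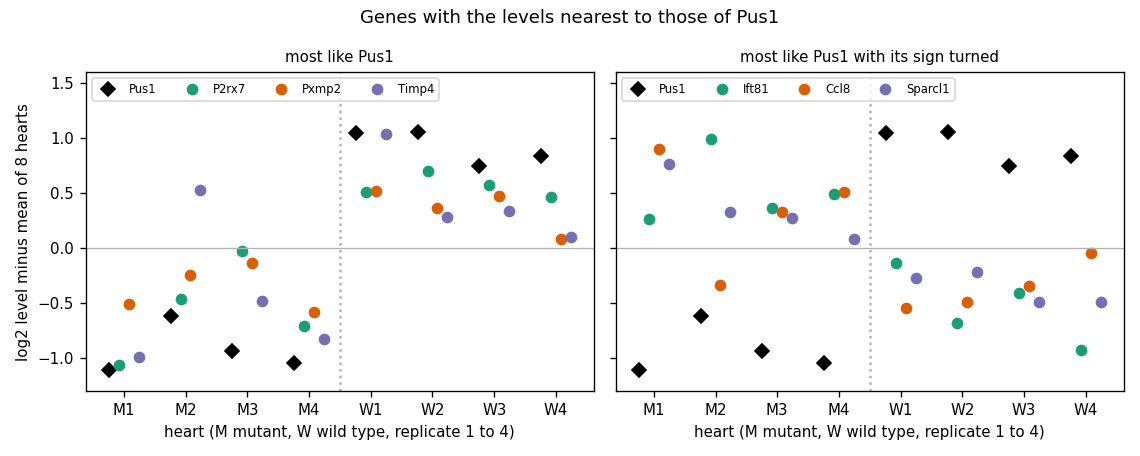
Log2 level minus the gene's mean over 8 hearts for Pus1 (diamonds) and the 3 genes nearest to it (left) or nearest to it with its sign turned (right), with mutant hearts M1 to M4 left of wild-type hearts W1 to W4. Pus1 spans -1.11 to 1.06, and Timp4 in mutant heart 2 lies with the wild-type hearts.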

How the data were processed

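RNA of 8 hearts was measured on 4 Agilent 2-colour arrays. Per the file headers, the authors extracted spots with Agilent Feature Extraction 10.7.3.1 from 1 slide. The deposited intensity values used were median spot and local background brightness. Feature Extraction's processed signals, intensity values with background subtracted and dyes normalized per the file headers, were an alternative, as were the log2 values of the deposited series matrix. Deposited log10 ratios with their errors were turned to log2, mutant over wild type. On arrays 1 to 4 the Cy3 columns of the matrix had medians of 0.01, 0.00, -0.01 and -0.01, and the Cy5 columns had 0.00, 0.01, 0.06 and -0.02. Its Cy5 minus Cy3 differences followed the processed ratios (correlation 0.991 to 0.998 over 28528 probes), which settled scale and direction, while the centring method stays unknown.

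Background was corrected with normexp (offset 50) and ratios by loess in limma 3.58.1 under R 4.3.3, control and uneven spots at weight 0. Probes well above background in at least 4 of 8 hearts were kept (28528 of 55681), and the brightest probe per gene gave 21792 features, 13692 named through RefSeq symbols of GRCm38.p6. Ratios were fitted with genotype and dye terms (lmFit, eBayes; 2 residual degrees of freedom), or with a sex term added (1 residual degree of freedom). All p were 2-sided, and Benjamini-Hochberg adjustment covered every feature (threshold 0.05). Levels per heart came from the channels after Aquantile normalization, and levels of different probes were not compared. Scripts were tested on simulated data.

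The labels put 1 mutant and 1 wild-type heart on each array, which is the pairing; their deviations from the genotype means correlated at -0.49, -0.11, -0.38 and 0.51 on arrays 1 to 4. The members and lists were chosen with earlier results of these data known. The text names the 3 genes, every other measured pseudouridine synthase, up to 4 genes of smallest p from each other list and 3 genes nearest to Pus1 in either sense; 1 gene so chosen is not reported here. The number of arrays limits the precision. With 1 array per heart, the spread between animals cannot be told apart from labelling and array error. The limma p-values also draw on the spread of all features.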

Additional observations from a re-analysis of the deposited data

Results flagged for a closer look

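In 36 groups of 4 values, taken from 12 measured synthase genes, 4 had a value set apart from the other 3, where chance gives about 1 in 20 groups. Levels and ratios came from the same hearts, so the groups are not independent, and an excess over that rate was not tested. The Pusl1 level of 8.83 in wild-type heart 1 lay above 8.57 to 8.61 in the other wild-type hearts. The Pus7l log2 ratio of -0.20 on array 2 lay below 0.19 to 0.26 on the others. The Pus10 level of 8.30 in mutant heart 1 lay below 8.82 to 8.91 in the other mutant hearts. The Rpusd3 level of 10.38 in mutant heart 3 lay above 9.98 to 10.04 in the other mutant hearts.

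For 3 of the measured synthase genes both female ratios lay below 0 and both male ratios above it. The share of all features with this pattern was not counted, so an excess was not tested. The differences, females minus males on the log2 scale, were -0.48 for Pus3, -0.17 for Trub2 and -0.33 for Dkc1. In limma with a sex term none passed (Benjamini-Hochberg adjusted p = 0.457 for Pus3, 0.905 for Trub2 and 0.725 for Dkc1). Another Trub2 probe, well above background in only 3 hearts and not among the tested features, lacked the pattern. Its log2 ratios were -0.26 and -0.35 in females and -0.30 and 0.34 in males.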

How the results depend on the processing

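With 1 probe per gene and balanced dyes, several alternatives, such as filters on dim probes or no dye term, could not move the estimates of Pus1, Pusl1 and Pus3. The Pus1 genotype effect was below 0 under all 20 alternatives (-2.84 to -1.73, adjusted p 0.00577 to 1.00 in limma). It did not pass as reported, and passed under median centring (-1.80, adjusted p = 0.0244), with a sex by genotype term (-1.85, 0.00577), and in separate channels with no replicate block (-1.85, 0.0286) or with the array as a random replicate block (-1.85, 0.0278). Under these 4 settings 1 feature passed between genotypes, against 0 (223 at an unadjusted p under 0.05) as reported. The cause was not tested. Without each array in turn the mean was -1.97 to -1.73 for Pus1, 0.09 to 0.29 for Pusl1 and -0.078 to 0.18 for Pus3, which was negative without replicate 3 (-0.078) or replicate 4 (-0.056). The Pus1 difference between females and males turned to 0.054 with scale normalization, and the cause was not tested. Features past the threshold in that difference, 2035 as reported, were 0 with processed signals, median centring, series matrix values or no dye term and 1244 when all 8 hearts had to be well above background. Counts ran from 0 to 894 in females (2 as reported) and from 0 to 1417 in males (737 as reported). Offsets of 0 and 16 were tried after seeing the data. Of the effects in each sex, those of Pusl1 and Pus3 kept their direction under 9 of 9 alternatives, and none passed. Nearness of the mutant Pus1 spots to background limits its fold, and 1 probe per gene leaves transcripts and isoforms unseparated.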
